A study of Mus musculus with 32 samples.

Results

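The genes described here are 32 genes of the G1/S transition and of DNA replication, measured by RNA sequencing in HSPCs of mice, the haematopoietic stem and progenitor cells that renew the blood. They were taken by name from a list, not by a threshold on any value: the subunits Mcm2 to Mcm7 of the replicative helicase, its loaders and activators (Cdc6, Cdt1, Mcm10, Cdc45, Gins1 and Gins2), fork proteins (Pcna, Rfc3, Rfc4, Rfc5, Fen1, Rpa2, Prim1, Pola1, Pold1 and Pole), nucleotide enzymes (Rrm1, Rrm2 and Tyms), chromatin and histone factors (Uhrf1, Slbp, Chaf1a and Chaf1b) and the G1/S regulators Ccne1, Ccne2 and E2f1. All 32 were found among the 45706 genes of the tables, and all 32 were among the 15186 genes that passed the filter on low counts.

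The HSPCs were wild-type donor cells of C57BL/6J background carrying both CD45.1 and CD45.2, sorted as lineage-negative, cKit-positive and Sca1-positive cells from bone marrow. In experienced mice they had shared the marrow with cells homozygous for doxycycline-inducible human MLL-AF9, a leukaemia fusion gene, and for its activator rtTA, at 800000 wild-type and 200000 partner cells per lethally irradiated CD45.2 recipient. In naive mice the same number of partner cells carried homozygous rtTA and no MLL-AF9. Every mouse, experienced or naive, received doxycycline for 5 weeks, starting 6 to 8 weeks after transplantation, followed by 4 weeks without it. Lipopolysaccharide (LPS), a bacterial product that sets off inflammation, or phosphate-buffered saline (PBS) was then injected, and marrow was taken 24 h later. The 4 groups, experienced LPS, naive LPS, experienced PBS and naive PBS, held 4 biological replicates each with 1 table per replicate. Neither the ages of the mice nor the number behind a replicate (a single mouse or several pooled) is labelled, and p-values therefore cover the spread between samples, part of which may be technical.

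Before a cell enters S phase, the origin recognition complex, CDC6 and CDT1 load the MCM ring on DNA as an inactive helicase. Cyclin E kinase and E2F transcription factors then drive the switch to S phase, CDC45 and the GINS complex turn the ring into the active helicase, and polymerases copy the strands around the sliding clamp PCNA. Many adult haematopoietic stem cells are quiescent or divide slowly, and inflammatory signals such as LPS are known to draw them into the cell cycle. The HSPCs sorted here hold progenitors as well. E2F transcription factors bind the promoters of many replication genes.

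E2F words were therefore looked for in RefSeq promoter windows (GRCm38.p6), which run from 250 bases before to 50 bases after a gene's start. Windows were held for 27 of the 32 genes, 30 windows in all. Ccne2, Gins1, Gins2, Mcm4 and Pole had none. The words were TTTCCCGC, TTTGGCGC, TTTCGCGC and TTTGCCGC, read on both strands, and overlapping matches were counted separately. At least 1 stood in the windows of 10 of the 27 genes (37.0%), against 4.7% of the genes tested that had a window and 2.6% of all genes with one. The 10 genes were Mcm3, Mcm5, Mcm6, Mcm7, Cdc6, Cdt1, Rfc3, Pold1, Pola1 and Uhrf1, so that they included 4 of the helicase subunits. The CCAAT box (CCAAT) was present in 17 of the 27 genes (63.0%, against 42.7% of the genes tested and 41.1% of all genes), the Sp1 word GGGCGG in 19 (70.4%, against 67.5% and 38.2%) and the CHR word TTTGAA, known from promoters of mitotic genes, in 3 (11.1%, against 14.6% and 20.2%). In 1 window an E2F word overlapped a CCAAT or Sp1 word. Of 24 genes of G2 and mitosis, 21 had a window, and there the order was the other way round, with the E2F words in 4.8% and the CHR word in 71.4%.

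The stretches below lie before the RefSeq start and outside GENCODE exons, each on its gene's own strand, with E2F words in capitals. They set 2 helicase subunits whose words overlap each other (Mcm5, plus strand, chr8:75109259-75109508; Mcm6, minus strand, chr1:128359706-128359955) beside 3 genes that were higher after LPS. Cdc6 (plus strand, chr11:98907982-98908150, an intron of a longer GENCODE transcript) has 1 word, and Mcm10 (minus strand, chr2:5012792-5013041) and Ccne1 (minus strand, chr7:38107535-38107740) have none.
Mcm5: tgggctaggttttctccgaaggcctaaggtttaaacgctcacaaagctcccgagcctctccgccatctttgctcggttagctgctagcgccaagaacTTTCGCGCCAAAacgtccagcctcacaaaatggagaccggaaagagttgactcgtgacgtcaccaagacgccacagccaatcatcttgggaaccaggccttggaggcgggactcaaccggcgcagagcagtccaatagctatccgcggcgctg
Mcm6: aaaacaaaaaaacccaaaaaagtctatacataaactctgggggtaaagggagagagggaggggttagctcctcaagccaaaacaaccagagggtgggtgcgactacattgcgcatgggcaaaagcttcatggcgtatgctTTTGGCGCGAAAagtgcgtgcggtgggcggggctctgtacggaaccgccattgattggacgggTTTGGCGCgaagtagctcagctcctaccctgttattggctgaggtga
Cdc6: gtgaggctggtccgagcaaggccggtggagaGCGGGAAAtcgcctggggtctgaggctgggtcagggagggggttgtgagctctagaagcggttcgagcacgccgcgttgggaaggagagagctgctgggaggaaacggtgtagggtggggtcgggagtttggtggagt
Mcm10: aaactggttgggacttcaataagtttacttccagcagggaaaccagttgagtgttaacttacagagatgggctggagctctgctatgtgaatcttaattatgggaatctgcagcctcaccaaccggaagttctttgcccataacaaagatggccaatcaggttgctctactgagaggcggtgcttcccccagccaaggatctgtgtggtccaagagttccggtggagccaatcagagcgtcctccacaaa
Ccne1: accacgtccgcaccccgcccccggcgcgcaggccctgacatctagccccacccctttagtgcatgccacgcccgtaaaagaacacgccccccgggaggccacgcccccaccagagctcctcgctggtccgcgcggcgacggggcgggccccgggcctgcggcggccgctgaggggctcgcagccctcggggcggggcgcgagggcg
The capitals in Mcm5 start 153 bases before the gene's start and hold 2 words, those in Mcm6 start 110 and 47 bases before it and hold 3 words, and the word of Cdc6 starts 138 bases before it. Of the 7 genes that passed the test in any comparison below, all had a window and 1 (Cdc6) had an E2F word. Of the 20 others with a window, 9 had one. A word is a match of letters and does not show that a factor binds there.

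Depth, as the sum of expected counts (the read estimates given by the quantification program), was 7718900 in the shallowest library and 22264700 in the deepest, to the nearest 100. Experienced LPS replicate 4 was that shallowest library, had the largest mitochondrial share (7.30%) and was the library least like its own group (mean correlation 0.915), followed by naive LPS replicate 2 (0.936), experienced PBS replicate 4 (0.947) and experienced PBS replicate 3 (0.950). The labels name no batch. Of the gate's markers, Kit averaged 482 ± 60.6 CPM in experienced LPS, 547 ± 132 in naive LPS, 652 ± 54.8 in experienced PBS and 735 ± 44.5 in naive PBS libraries (CPM, counts scaled to a common library size; SD, n = 4). It differed by −0.43 (SE 0.11) on the log2 scale between LPS and PBS averaged over experienced and naive mice (edgeR, adjusted p = 0.00797), while Ly6a, which encodes Sca1, differed by 1.79 (SE 0.24, adjusted p = 4.14e-05). The sum over the 12 gate markers lay between 1761 and 2223 CPM after LPS and between 2408 and 3578 CPM after PBS. Averaged over experienced and naive mice, 2 of the 12 were called higher and 8 lower after LPS (median log2 difference −0.70). Of all genes tested, 15.2% were higher and 18.3% lower. The counts were 2 higher and 5 lower in experienced mice, and 2 and 7 in naive mice. There 4.52% and 8.26%, and 9.81% and 11.9%, of all genes tested were higher and lower. In bulk RNA, fewer cells that express a gene and less of its RNA per cell cannot be told apart. Kit and Ly6a encode proteins used for the sort. Whether the gate took in the same kinds of cells after LPS as after PBS was not tested.

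All 32 genes were expressed in every library. Levels between genes are compared in TPM, which is scaled for transcript length. Pcna, the sliding clamp, was the most abundant at a mean of 309 TPM over the 16 libraries, and Ccne1, which encodes cyclin E1, the least at 14.6 TPM. Mcm7, Mcm6 and Mcm3 followed Pcna at 233, 197 and 187 TPM, whereas the other ring subunits, which the helicase holds in equal copies, averaged 119 (Mcm2), 115 (Mcm5) and 74.1 TPM (Mcm4). Loaders and activators were lower, with 63.5 TPM for Cdt1, 45.2 for Mcm10, 30.4 for Cdc6, 29.5 for Gins1, 26.5 for Gins2 and 26.4 for Cdc45. At the fork Pold1, the catalytic subunit of polymerase delta, stood at 129 TPM, Pole, that of polymerase epsilon, at 49.3, and Pola1, that of polymerase alpha, at 34.0. Rrm1 and Rrm2, the large and small subunits of ribonucleotide reductase, averaged 94.9 and 82.6 TPM, and Tyms, which makes thymidylate, 75.8 TPM. Uhrf1, which carries DNA methylation over to the new strand, averaged 139 TPM and Chaf1a, the large subunit of chromatin assembly factor 1, 42.1 TPM. Together the 32 genes took 0.193% to 0.308% of all TPM, with 0.232% to 0.308% in experienced LPS, 0.197% to 0.307% in naive LPS, 0.251% to 0.288% in experienced PBS and 0.193% to 0.297% in naive PBS libraries. These ranges overlap between all groups.

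**Figure D1:**
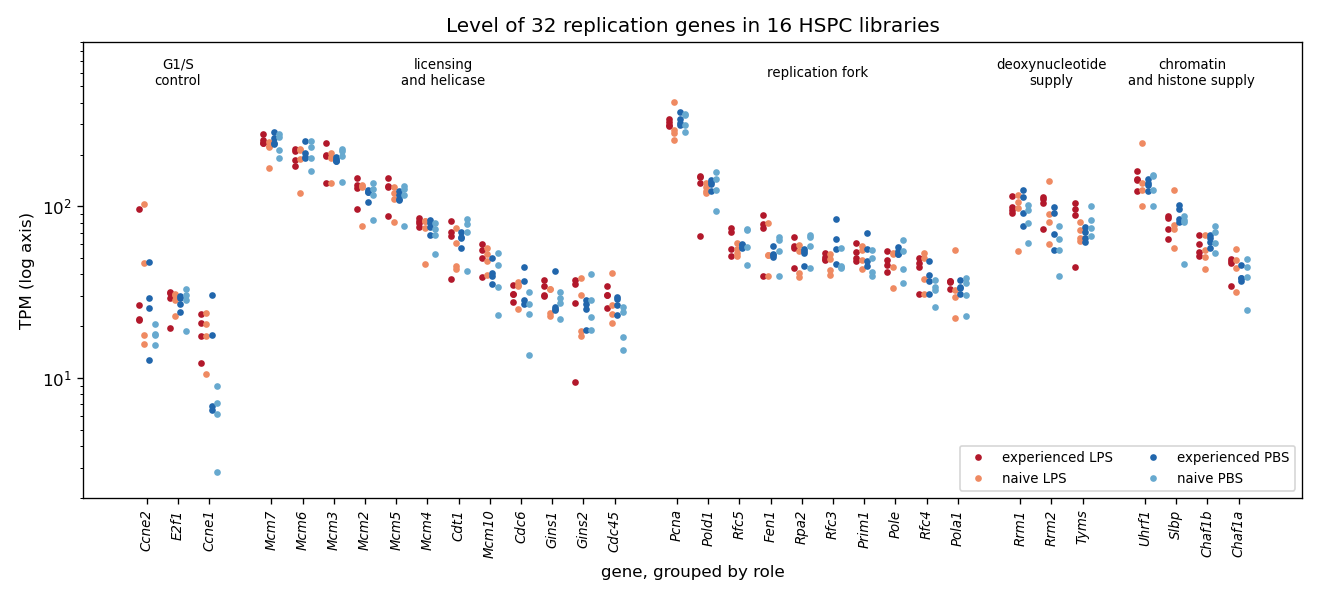
TPM on a log axis for each of the 32 genes, 1 point per library, coloured by group and grouped by role. Pcna (mean 309 TPM), Mcm7, Mcm6 and Mcm3 have the highest means and Ccne1 (14.6 TPM) the lowest; its points of experienced PBS replicates 1 and 2 (6.53 and 6.85 TPM) and of the 4 naive PBS libraries (2.81 to 8.91 TPM) are the lowest of all.

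The least expected count behind a value was 86, for Ccne1, and the largest 10313, for Mcm6. At the median the 32 varied less than the genes tested, which were not matched to them for expression level. By mean TPM the 32 lay between percentiles 52.5 (Ccne1) and 97.7 (Pcna) of the genes tested. The residual SD of log2 CPM about the group means had a median of 0.226 over the 32 genes, against 0.361 over all genes tested. A small constant was added to the counts for the median over all genes only. Chaf1b, the middle subunit of chromatin assembly factor 1 (0.117), Pole (0.133), Rfc3, a subunit of the clamp loader (0.136), and Pcna (0.150) varied least, and Ccne1 (0.652) and Ccne2, which encodes cyclin E2 (0.406), most. Exons of 10 of the 32 genes overlap those of another gene in GENCODE, for example Fen1 with Gm10143 (78.8% of its exonic bases), Gins2 with Gse1 (67.3%) and Chaf1a with Ubxn6 (52.5%), all on the other strand. The sources used here do not give the strand setting of the counting, so reads of these genes may be mixed with those of their neighbours.

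In HSPCs of naive mice, 9.81% of all genes tested were called higher after LPS than after PBS, as were 5 of the 32 genes. These were cyclin E1 (Ccne1), the loader Cdc6, the helicase activators Mcm10 and Cdc45, and Rrm2, the S-phase-regulated subunit of ribonucleotide reductase. None of the 32 was lower, beside 11.9% of all genes tested. Ccne1 differed most, at 2.66-fold, and the other 4 by 1.41-fold to 1.59-fold. The MCM ring itself and Pcna were not among them. The count of 5 depended on single libraries, falling to 0 without naive PBS replicate 2 or 4.

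Ccne1 (chromosome 7, 38097984 to 38107534, GRCm38) had 29.8, 20.2, 27.8 and 28.1 CPM in experienced LPS replicates 1 to 4 and 17.97, 17.95, 33.2 and 19.0 CPM in naive LPS. It had 7.85, 9.06, 23.8 and 39.6 CPM in experienced PBS and 9.24, 8.56, 10.3 and 5.15 CPM in naive PBS libraries. Every naive LPS library lay above every naive PBS library, while experienced PBS replicates 3 and 4 lay within or above the LPS range and made the experienced groups overlap. The log2 difference between LPS and PBS was 1.41 (SE 0.41) in naive mice (edgeR, adjusted p = 0.0229).

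Cdc6 (chromosome 11, 98907801 to 98923940) had 79.9, 72.6, 79.2 and 86.5 CPM in experienced LPS and 82.9, 85.9, 96.8 and 81.9 CPM in naive LPS libraries. After PBS it had 62.8, 61.4, 86.8 and 118 CPM in experienced mice and 59.8, 63.6, 68.7 and 46.8 CPM in naive mice. The naive groups did not overlap, and its highest value of all was experienced PBS replicate 4. The difference in naive mice was 0.54 (SE 0.18, edgeR, adjusted p = 0.0429).

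Mcm10, which helps to activate the loaded helicase (chromosome 2, 4989714 to 5012791), had 102, 104, 103 and 70.3 CPM in experienced LPS and 75.3, 106, 100 and 91.9 CPM in naive LPS libraries. After PBS the values were 61.4, 66.8, 80.4 and 79.2 CPM in experienced and 62.8, 71.5, 74.7 and 55.1 CPM in naive mice. The naive groups did not overlap, though naive LPS replicate 1 was close to naive PBS replicate 3, and in experienced mice LPS replicate 4 fell among the PBS values. The log2 difference in naive mice was 0.50 (SE 0.16, edgeR, adjusted p = 0.0324).

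Cdc45, a subunit of the active helicase (chromosome 16, 18780447 to 18811987), had 52.4, 46.7, 49.1 and 39.5 CPM in experienced LPS and 35.7, 63.7, 38.1 and 40.2 CPM in naive LPS libraries. In PBS libraries it had 29.1, 36.1, 43.8 and 46.7 CPM in experienced and 26.8, 32.5, 32.4 and 25.9 CPM in naive mice. Naive LPS replicate 2 was far above the other 3 of its group, which were themselves above all naive PBS libraries. Its log2 difference in naive mice was 0.59 (SE 0.19, edgeR, adjusted p = 0.0357).

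Rrm2 (chromosome 12, 24708241 to 24714146) had 174, 176, 171 and 101 CPM in experienced LPS and 104, 169, 152 and 111 CPM in naive LPS libraries. It had 75.5, 94.8, 126 and 150 CPM in experienced PBS and 87.8, 81.2, 94.8 and 72.4 CPM in naive PBS libraries. The naive groups did not overlap; in experienced mice, LPS replicate 4 lay below PBS replicates 3 and 4. In naive mice the difference was 0.67 (SE 0.22, edgeR, adjusted p = 0.0414).

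**Figure D2:**
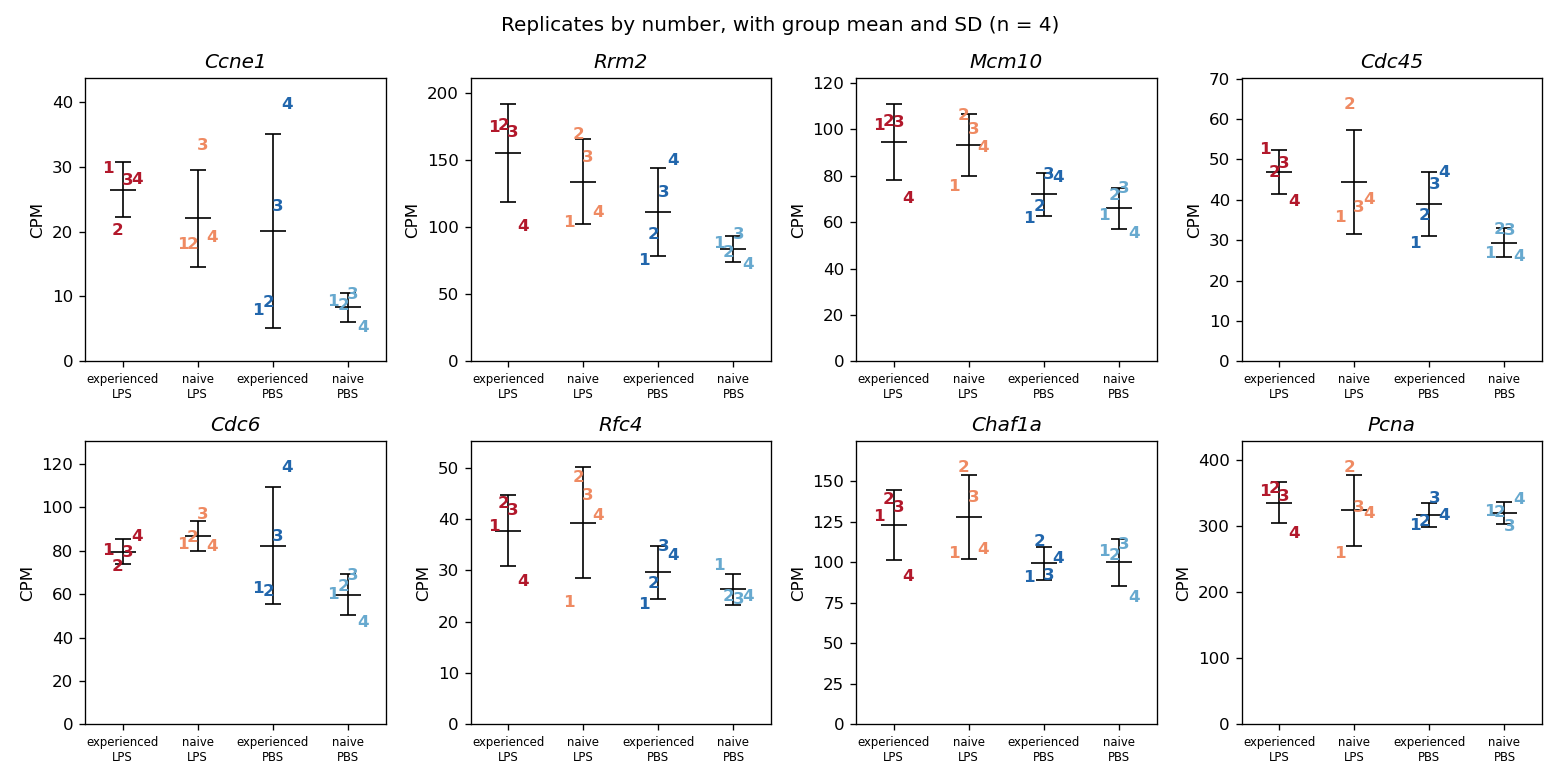
CPM of the 7 genes that passed the test in any comparison, with Pcna as a gene that did not; digits are replicate numbers at their values, and bars give the group mean and SD (n = 4). Naive PBS libraries are low and close together for Ccne1 (5.15 to 10.3 CPM), experienced PBS replicates 3 and 4 stand high, and experienced LPS replicate 4 stands low for Rrm2, Mcm10, Rfc4 and Chaf1a.

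Read against all genes, 5 of 32 is not far from the background. Of the 15186 genes tested, 9.81% were higher and 11.9% lower in naive mice after LPS at an adjusted p under 0.05. Of the 32 genes, 25 had a positive log2 difference, and their median was 0.17, against 0.02 for all genes tested. DESeq2 called 6 of the 32, adding Rfc4, and limma on log2(TPM + 1) called 1, Ccne1. Without adjustment, edgeR's p was under 0.05 for 8, all higher. Of all 15186 genes tested, DESeq2 called 1924 higher and limma 374. Unadjusted, edgeR gave 2676 higher. The call of 5 rested on several libraries. It was 0 when naive PBS replicate 2 or 4 was left out. It was 1 when naive LPS replicate 2, naive LPS replicate 3 or naive PBS replicate 1 was left out. Leaving out experienced LPS replicate 1, experienced LPS replicate 2 or naive PBS replicate 3 gave 3. Of 24 alternative fits, the call of Ccne1 was kept in 21 and those of Mcm10 and Cdc45 in 17 each. Rrm2 kept its call in 13 and Cdc6 in 11.

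None of the ring subunits passed the test in naive mice. Mcm2 had 327, 374, 382 and 264 CPM in naive LPS and 326, 305, 311 and 269 CPM in naive PBS libraries, and Mcm3 had 290, 438, 373 and 295 against 367, 339, 348 and 295 CPM. Mcm4 had 216, 251, 232 and 171 CPM in naive LPS and 203, 189, 195 and 181 CPM in naive PBS libraries. All 3 genes had LPS libraries on both sides of the PBS range. Mcm5 had 298, 323, 384 and 286 CPM after LPS and 331, 311, 305 and 251 CPM after PBS in naive mice. Mcm6 had 425, 513, 463 and 344 CPM after LPS, against 456, 450, 457 and 417 CPM after PBS, and Mcm7 had 334, 347, 428 and 321 CPM, against 396, 392, 397 and 353 CPM. For Mcm5, Mcm6 and Mcm7 the groups overlapped too. The log2 differences of the 6 subunits ran from −0.10 for Mcm7 (95% interval −0.41 to 0.21) to 0.18 for Mcm4 (−0.11 to 0.47).

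Other genes of naive mice that did not pass the test came with intervals that include moderate changes. Rfc4, a clamp loader subunit, had a log2 difference of 0.58 (SE 0.20, edgeR, adjusted p = 0.0529) and Ccne2 one of 0.66 (SE 0.26, adjusted p = 0.0829). Ccne2 had 37.2, 65.2, 33.3 and 34.7 CPM in naive LPS and 23.9, 25.3, 28.7 and 29.8 CPM in naive PBS libraries, which do not overlap. Nor did those of Prim1, with 66.5 to 79.8 CPM after LPS and 57.5 to 62.9 CPM after PBS. Its difference was 0.23 (SE 0.15, edgeR, adjusted p = 0.284). How many of all genes tested had groups without overlap was not counted. Pcna had 259, 389, 328 and 319 CPM after LPS, against 322, 320, 299 and 340 CPM after PBS, and a difference of 0.02 (95% interval −0.27 to 0.30). Cdt1, the loading factor that geminin inhibits, had −0.14 (−0.62 to 0.34), and E2f1, a transcription factor that activates replication genes, 0.17 (−0.16 to 0.51). Over all 32 genes the intervals reached from −0.62 at the lowest to 2.31 for Ccne1.

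The most and least abundant genes of the other roles overlapped between LPS and PBS in naive mice. Rrm1 had 309.8, 401, 343 and 227 CPM in naive LPS and 267, 275, 279 and 235 CPM in naive PBS libraries, with LPS replicate 4 the lowest of the 8. Tyms had 76.9, 98.4, 80.4 and 95.9 CPM after LPS, against 78.0, 74.6, 84.3 and 75.2 CPM after PBS. Uhrf1 had 332, 478, 342 and 294 CPM after LPS, against 328, 332, 327 and 284 CPM after PBS, and here LPS replicate 2 stood high. The same library stood high for Pola1, which had 125, 237, 135 and 123 CPM in naive LPS and 137, 135, 137 and 116 CPM in naive PBS libraries. The log2 differences were 0.28 (SE 0.18) for Rrm1, 0.17 (SE 0.13) for Tyms and 0.19 (SE 0.16) for Uhrf1, and none passed the test.

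In experienced mice no gene of the 32 passed the test after LPS, although 29 of 32 log2 differences were positive and their median was 0.21, against −0.03 over all genes tested. In that comparison 4.52% of all genes tested were higher and 8.26% lower. The count of 0 was the same by DESeq2 and by limma on log2(TPM + 1), and edgeR's unadjusted p was under 0.05 for 5, all higher: Mcm10, Mcm3, Tyms, Fen1 and Rrm2. Of all 15186 genes tested, 1733 were higher at that unadjusted level. DESeq2 called 1178 of all genes higher and limma 178. The largest difference of the 32 was that of Fen1, the nuclease that trims Okazaki fragments, at 0.53 (SE 0.23, edgeR, adjusted p = 0.139), followed by Rrm2 at 0.48 (SE 0.22, adjusted p = 0.171). Cdc6 had a difference of −0.05 (SE 0.18), Ccne2 of −0.05 (SE 0.26) and Ccne1 of 0.41 with a 95% interval of −0.47 to 1.29.

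Most ring subunits had one shape in experienced mice, with LPS replicates 1 to 3 high and replicate 4 low. Mcm2 had 397, 383, 373 and 259 CPM in experienced LPS and 256, 305, 307 and 338 CPM in experienced PBS libraries. Mcm3 had 430, 411, 405 and 291 CPM after LPS, against 300.3, 319, 267 and 285 CPM after PBS. For both genes, LPS replicates 1 to 3 lay above every PBS library and replicate 4 lay among them. Mcm5 had 404, 381, 384 and 242 CPM in experienced LPS and 272, 317, 280 and 321 CPM in experienced PBS libraries, and Mcm7 had 468, 447, 440 and 303 against 367, 370, 383 and 387 CPM. Mcm6 had 493, 502, 459 and 382 CPM after LPS and 389, 431, 494 and 426 CPM after PBS. LPS replicate 4 was below all 4 PBS libraries for Mcm5, Mcm6 and Mcm7, and for Mcm6 PBS replicate 3 was among the high LPS values. Mcm4 was the exception among the 6, with 247, 244, 237 and 238 CPM after LPS and 175, 203, 216 and 243 CPM after PBS, and there LPS replicate 4 was not low.

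Of the other genes, Pola1 had groups that did not overlap in experienced mice, with 154, 167, 153 and 150 CPM after LPS and 126, 128, 148 and 127 CPM after PBS. Its difference was 0.24 (SE 0.17, edgeR, adjusted p = 0.407). Here too, the share of all genes tested without overlap was not counted. Tyms had 96.0, 92.3, 88.0 and 110 CPM after LPS and 61.1, 74.8, 88.2 and 84.2 CPM after PBS, where LPS replicate 3 was just under PBS replicate 3. Uhrf1 had 415, 390, 395 and 302 CPM after LPS, against 277, 322, 344 and 353 CPM after PBS, with LPS replicate 4 again among the PBS values. Rrm1 had 376, 342, 335 and 292 CPM in LPS and 222, 275, 378 and 370 CPM in PBS libraries of experienced mice. Here PBS replicates 3 and 4 were about as high as the highest LPS library. Pcna had 352, 356, 345 and 289 CPM after LPS and 301, 307, 342 and 316 CPM after PBS. For Pcna, too, LPS replicate 4 was the lowest of the 8 libraries.

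**Figure D3:**
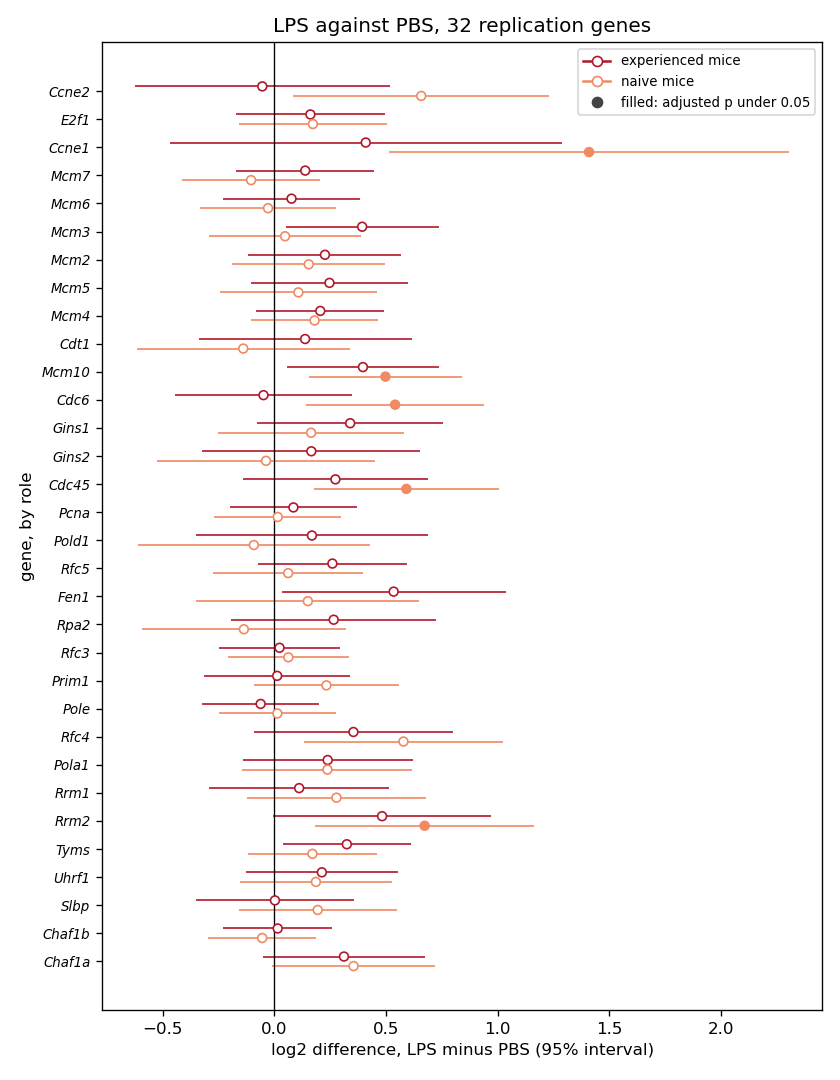
Log2 difference between LPS and PBS for each gene in experienced mice (dark red) and naive mice (orange) with 95% intervals from edgeR; filled points passed the test. Ccne1, Mcm10, Cdc6, Cdc45 and Rrm2 are filled in naive mice, none is filled in experienced mice, and the intervals of experienced and naive mice overlap for each of the 32 genes.

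The count in experienced mice depended on experienced LPS replicate 4, as did the share of all genes called. In that library 23 of the 32 genes were below their mean over the 16 libraries, while 31, 31 and 29 genes were above it in replicates 1, 2 and 3. Its Pold1 was 85.8 CPM, against 219 to 237 CPM in the other 3, and its Fen1 65.0 CPM, against 141 to 155 CPM. Both cyclin E genes and Cdc6 were not low there, with Ccne1 at 28.1, Ccne2 at 50.6 and Cdc6 at 86.5 CPM, whereas E2f1 was, at 42.1 CPM. Without that library 5 of the 32 genes were higher after LPS in experienced mice (Mcm3, Mcm5, Mcm10, Rrm2 and Fen1). The share of all genes tested that were higher was 9.36% in that fit, against 4.52% with all libraries. The 4 libraries least like their groups were experienced LPS replicate 4, naive LPS replicate 2 and experienced PBS replicates 3 and 4. Of experienced PBS, replicates 1 and 2 alone remained without them. Leaving the 4 out was a choice made after seeing the data. In that fit 17 of the 32 were higher in experienced mice, beside 15.9% of all genes. In naive mice 7 were higher, beside 17.4%. All 32 differences were then positive in experienced mice, with a median of 0.42. The direction of Ccne2 was reversed, with a log2 difference of 0.43 (edgeR, adjusted p = 0.0307) in place of the −0.05 of all libraries. Its high values in experienced PBS replicates 3 and 4 (56.3 and 55.1 CPM) were not in that fit. Taking out a low LPS library and high PBS libraries raises such differences by itself, so these counts are not read as a stronger LPS response.

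**Figure D4:**
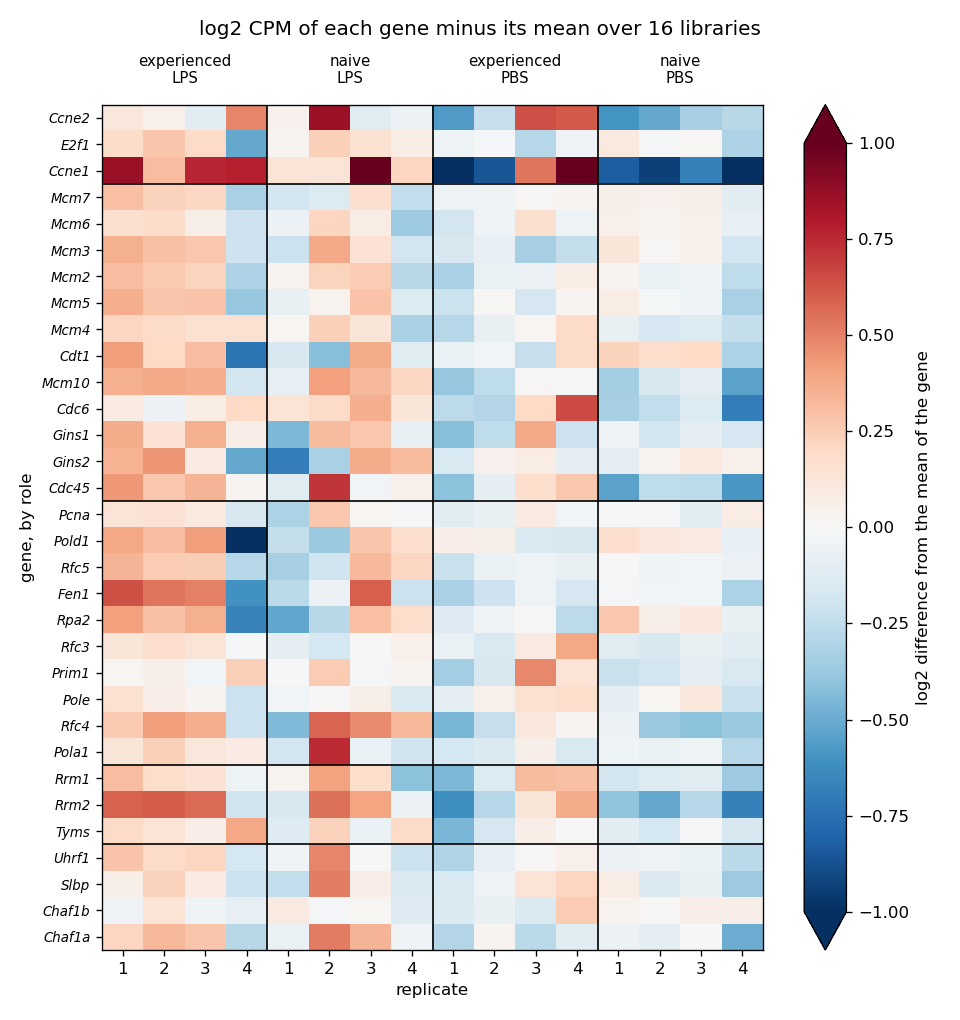
Log2 CPM of each gene minus its own mean over 16 libraries, genes by role (rows) and replicates 1 to 4 of each group (columns), with colours capped at 1 in either direction. Experienced LPS replicates 1 to 3 are red for 29 to 31 of 32 genes, replicate 4 is blue for 23, and experienced PBS replicates 3 and 4 are red for Ccne1, Ccne2 and Cdc6.

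Averaged over experienced and naive mice, 6 of the 32 genes were higher after LPS and none was lower, beside 15.2% of all genes tested that were higher and 18.3% that were lower. The share of the 32 is near that background. Mcm10 had a log2 difference of 0.45 (SE 0.11, edgeR, adjusted p = 0.00538), Rrm2 of 0.58 (SE 0.16, adjusted p = 0.0103), Cdc45 of 0.43 (SE 0.13, adjusted p = 0.0205) and Ccne1 of 0.91 (SE 0.29, adjusted p = 0.0225). Cdc6, called in naive mice alone, had 0.25 (SE 0.13, adjusted p = 0.153). Rfc4 and Chaf1a passed edgeR's test in this comparison and in no other, with 0.47 (SE 0.14, edgeR, adjusted p = 0.0205) and 0.33 (SE 0.12, adjusted p = 0.0388), and Tyms just missed it (0.25, SE 0.09, adjusted p = 0.0501). DESeq2 called 7, limma on log2(TPM + 1) 1, and edgeR's unadjusted p was under 0.05 for 7. Of all 15186 genes tested, 3125 were higher at that unadjusted level. DESeq2 called 2728 of all genes higher and limma 834. Without experienced LPS replicate 4 the count of the 32 was 11, beside 17.7% of all genes, and without the 4 least typical libraries it was 20, beside 24.1%. Of 23 alternative fits, Chaf1a kept its averaged call in 12, and each of the other called genes in 22.

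Rfc4 had 38.6, 43.1, 41.6 and 27.8 CPM in experienced LPS and 23.8, 48.2, 44.6 and 40.6 CPM in naive LPS libraries, and 23.4, 27.5, 34.7 and 32.8 CPM in experienced PBS and 30.9, 24.9, 24.3 and 24.98 CPM in naive PBS libraries. Experienced LPS replicate 4 and naive LPS replicate 1 lay in the PBS range and the other 6 LPS libraries above it. Chaf1a had 128, 139, 134 and 91.2 CPM in experienced LPS and 105, 159, 140 and 108 CPM in naive LPS libraries. After PBS it had 90.5, 113, 91.6 and 102 CPM in experienced and 106, 104, 111 and 78.5 CPM in naive mice. The same pair of LPS libraries was low, together with naive LPS replicate 4.

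By role, the averaged LPS comparison called 2 of 12 licensing and helicase genes and 1 of 10 fork genes higher. It also called 1 of 3 nucleotide genes, 1 of 4 chromatin and histone genes and 1 of 3 G1/S regulators. Of all genes tested, 15.2% were higher. The median log2 differences of these roles were 0.19, 0.09, 0.25, 0.15 and 0.30, against 0.005 for all genes tested. Roles were not tested against each other. Fork genes other than Rfc4 and Fen1 (0.34, SE 0.16) had smaller differences: Pold1 had 0.04 (SE 0.17), Pole −0.02 (SE 0.08), Rfc3 0.04 (SE 0.09), Prim1, the primase subunit, 0.12 (SE 0.11) and Rpa2, which coats single strands, 0.06 (SE 0.15). Slbp, which binds histone mRNA, had 0.10 (SE 0.11), Chaf1b −0.02 (SE 0.08), Gins1 0.25 (SE 0.13), Rfc5 0.16 (SE 0.11) and Gins2 0.06 (SE 0.16), none of which passed the test. On log2(TPM + 1) the direction of many genes depended on the scale. There the median of all genes shifted to −0.13 in experienced mice, −0.09 in naive mice and −0.11 on average, and 19, 17 and 19 of the 32 differences were positive; the medians of the 32 were 0.08, 0.02 and 0.04. Of all genes called for the averaged LPS comparison, 45.3% were higher in edgeR, 36.9% with upper-quartile scaling and 23.3% on log2(TPM + 1). In naive mice these shares were 45.2%, 35.0% and 19.9%, and in experienced mice 35.4%, 30.3% and 15.7%.

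None of the 32 genes passed the test between experienced and naive HSPCs, after LPS, after PBS or averaged over both. The share of all genes tested that was higher or lower was 0% in each of these comparisons. After LPS edgeR's unadjusted p was under 0.05 for 0 of the 32, and DESeq2 and limma called 0 as well. The differences ran from −0.13 for Cdc6 (95% interval −0.52 to 0.27) to 0.29 for Fen1 (−0.21 to 0.79). After PBS unadjusted p was under 0.05 for 4, all higher in experienced mice, and DESeq2 and limma called 0: Ccne1 differed by 1.26 (SE 0.41), Ccne2 by 0.63 (SE 0.26), Cdc6 by 0.46 (SE 0.18) and Cdc45 by 0.40 (SE 0.19), each with an edgeR adjusted p of 0.988. At that unadjusted level, 297 of all 15186 genes were higher and 154 lower after PBS. Averaged over LPS and PBS, 1 of the 32 had an unadjusted p under 0.05, Ccne1 at 0.76 (SE 0.29), and DESeq2 and limma called 0. Of all genes, 96 were higher and 198 lower unadjusted in that average.

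The values behind those 4 genes were uneven within the experienced PBS group. Ccne2 had 39.0, 37.4, 33.5 and 50.6 CPM in experienced LPS, and 24.4, 30.7, 56.3 and 55.1 CPM in experienced PBS libraries, against 23.9, 25.3, 28.7 and 29.8 CPM in naive PBS. Replicates 3 and 4 of experienced PBS were above all naive PBS libraries for Ccne1, Ccne2, Cdc6 and Cdc45, and replicates 1 and 2 were within the naive range for Ccne1 and Cdc6. Rrm2 and Rrm1 were also highest in replicates 3 and 4 of that group. The 95% interval of the Ccne1 difference was 0.37 to 2.16.

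The LPS responses of experienced and naive mice were compared by their difference, experienced minus naive, which passed the test for none of the 32 genes and for 0% of all genes tested in either direction. Unadjusted p was under 0.05 for 1, Cdc6, lower in experienced mice, and DESeq2 and limma called 0. Of all 15186 genes, 231 were higher and 464 lower at that unadjusted level. The difference of responses was −0.59 for Cdc6 (SE 0.26), −0.71 for Ccne2 (SE 0.37) and −1.0 for Ccne1 (SE 0.57), each with an edgeR adjusted p of 0.884. For Mcm3 it was 0.35 (SE 0.22) and for Rpa2 0.40 (SE 0.30). The 5 genes called in naive mice are therefore not shown to respond differently in experienced mice.

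Sums over marker genes of other cells also differed between these libraries. Counts of markers called stand beside all genes tested, of which 4.52% were higher and 8.26% lower after LPS in experienced mice. In naive mice these shares were 9.81% and 11.9%. The sum over 14 erythroid markers was 1014 to 2307 CPM in experienced LPS, 1228 to 2590 in naive LPS, 387 to 3078 in experienced PBS and 483 to 596 CPM in naive PBS libraries. In experienced PBS it was 387, 435, 1209 and 3078 CPM in replicates 1 to 4, high in the same 2 libraries as Ccne1, Ccne2 and Cdc6. Of the 13 erythroid markers tested, 1 was higher after LPS in experienced mice (Tfrc) and 7 in naive mice (among them Tfrc, Gata1, Klf1, Ermap, Epor and Car1). None was called lower in either. The list was split in direction. In experienced mice 6 log2 differences were positive and 7 negative (median −0.007, lowest −1.86). In naive mice 9 were positive and 4 negative (median 2.25, lowest −1.13). The sum over 11 basophil and mast cell markers was 629 to 978 CPM in experienced LPS and 828 to 1404 CPM in naive LPS, against 259 to 496 CPM in experienced PBS and 291 to 332 CPM in naive PBS libraries, and 8 of 11 were higher after LPS in experienced and 10 of 11 in naive mice. No marker of any of the 8 lists given here was at 0 in all libraries.

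Neutrophil markers (11 genes, granule proteins of myeloid progenitors included) were low and high in some of the same libraries as the replication genes. Their sum was 3156, 3372, 3679 and 1448 CPM in experienced LPS and 1887, 2878, 2530 and 1211 CPM in naive LPS replicates 1 to 4. After PBS it was 1274, 1155, 2302 and 3778 CPM in experienced and 1859, 1662, 1910 and 808 CPM in naive mice. It was thus low in experienced LPS replicate 4 and naive PBS replicate 4 and high in experienced PBS replicates 3 and 4, and of 9 markers tested 1 was lower and 0 higher after LPS in experienced and in naive mice alike. The 10 monocyte and dendritic cell markers summed to 117, 128, 122 and 39.5 CPM in experienced LPS and 49.3 to 92.5 CPM in naive LPS, against 99.5 to 228 CPM in experienced PBS and 80.8 to 202 CPM in naive PBS libraries, and 1 was higher and 1 lower after LPS in experienced mice and 3 were lower in naive mice. B cell markers (12 genes) summed to 36.7 to 85.8 CPM in experienced LPS and 34.7 to 84.2 CPM in naive LPS, against 179 to 1119 CPM in experienced PBS and 272 to 563 CPM in naive PBS libraries, so that LPS and PBS libraries did not overlap. Of 10 tested, 3 were lower in experienced and 6 in naive mice.

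The 8 megakaryocyte markers summed to 437 to 757 CPM in experienced LPS and 476 to 617 CPM in naive LPS, against 231 to 352 CPM in experienced PBS and 334 to 414 CPM in naive PBS libraries, with 2 of 8 higher after LPS in experienced mice and 2 higher and 1 lower in naive mice. Such a sum follows the most abundant genes. By gene, 7 log2 differences were positive and 1 negative in experienced mice (median 0.77). In naive mice 3 were positive and 5 negative (median −0.31). T and NK cell markers (10 genes) summed to 57.2 to 119 CPM in experienced LPS, lowest in replicate 4, and 78.0 to 101 CPM in naive LPS, against 80.2 to 87.7 CPM in experienced PBS and 97.7 to 117 CPM in naive PBS libraries. Markers of stroma and endothelium (9 genes) summed to 75.5 to 86.9 CPM in experienced LPS and 67.2 to 89.9 CPM in naive LPS, against 116 to 160 CPM in experienced PBS and 119 to 139 CPM in naive PBS libraries. Of the few tested, 1 of 4 T and NK cell markers and 2 of 5 stroma and endothelium markers were lower in each kind of mice. The part of any of these cells in the differences of replication genes was not tested.

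Other genes of the same pathways were counted in the same fit, without a set test. The counts of this and the following lists stand beside the shares of all genes tested. Those shares were 9.81% higher and 11.9% lower in naive mice, 4.52% and 8.26% in experienced mice, and 15.2% and 18.3% on average. Several of the counts are near them. Of 21 further licensing and firing genes, 6 were higher and 0 lower in naive mice after LPS, 1 higher and 1 lower in experienced mice, and 6 and 1 on average, with medians of 0.36, 0.17 and 0.23. Orc1 and Orc2, subunits of the origin recognition complex, differed by 0.76 (SE 0.17) and 0.83 (SE 0.18) in naive mice, and Recql4, a helicase needed to start replication, by 1.09 (SE 0.21). Orc6 was higher in naive mice as well (0.54, SE 0.18). In experienced mice Gmnn, which encodes the CDT1 inhibitor geminin, was higher (0.51, SE 0.16) and Mcm9, a relative of the ring subunits that acts in repair, fell by 0.42 (SE 0.13). Of 27 further fork genes tested, 0 were called in naive mice (unadjusted p under 0.05 for 8, DESeq2 2, limma 0), 1 was higher in experienced mice (Pold2, the second subunit of polymerase delta, 0.56, SE 0.17) and 5 were higher on average. These 5 were Pola2, Prim2, Pold2, Pole3 and Tipin, at 0.27 to 0.48. In naive mice, 2676 of all 15186 genes were higher at unadjusted p under 0.05, 1924 by DESeq2 and 374 by limma.

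Nucleotide supply had the most genes called higher on average among these lists. Of 24 further genes, 7 were higher and 1 lower in naive mice, 5 higher and 0 lower in experienced mice, and 11 higher and 2 lower on average. Ctps, which makes CTP, differed by 0.81 (SE 0.15) in experienced and 0.71 (SE 0.15) in naive mice. The mitochondrial folate enzymes Shmt2 and Mthfd2 differed by 0.65 (SE 0.14) and 1.3 (SE 0.30) in experienced mice and by 0.46 (SE 0.14) and 0.90 (SE 0.29) in naive mice. Nme1, a nucleoside diphosphate kinase, differed by 0.74 (SE 0.17) in experienced and 0.50 (SE 0.17) in naive mice. Mthfd1, the cytosolic folate enzyme (0.82, SE 0.22), was higher in naive mice, and Gart, an enzyme of purine synthesis (0.75, SE 0.19), in experienced mice.

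Of 15 further chromatin genes, 3 were higher in naive mice and 0 lower: Nasp, a histone chaperone (1.11, SE 0.31), Supt16, a subunit of the FACT chaperone (0.84, SE 0.26), and Hells, a chromatin remodeller (0.77, SE 0.26). In experienced mice 0 of the 15 were called (unadjusted 0, DESeq2 0, limma 0), and on average 4 were higher, Hat1, a histone acetyltransferase, being the fourth (0.37, SE 0.12). Among 28 further G1/S regulators both directions occurred, with 3 higher and 6 lower in naive mice, 1 higher and 2 lower in experienced mice, and 6 and 6 on average. Cdkn1c, the p57 inhibitor of quiescent stem cells, fell by 1.94 (SE 0.51) in experienced and by 1.87 (SE 0.50) in naive mice, and Tfdp2, a partner of E2F proteins, fell by 0.84 (SE 0.13) in experienced and by 0.57 (SE 0.13) in naive mice. E2f8, a repressive E2F, was higher in naive mice (1.20, SE 0.24), and on average Tfdp1 (0.39, SE 0.10) and the phosphatase gene Cdc25a (0.33, SE 0.08) were higher. Cdkn2c, an inhibitor of the cyclin D kinases, fell by 0.48 (SE 0.15) in naive mice.

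Genes of G2 and mitosis gave 1 higher and 0 lower of 24 in experienced mice, 4 and 0 in naive mice, and 6 and 1 on average. Mybl2, a transcription factor of cycling cells, was higher in both experienced (0.79, SE 0.16) and naive mice (0.77, SE 0.16). Bub1, a spindle checkpoint kinase (0.59, SE 0.20), Birc5, which encodes survivin (0.72, SE 0.22), and Cenpe, a kinetochore motor (0.80, SE 0.27), were higher in naive mice, and the mitotic kinase genes Plk1 (0.47, SE 0.16) and Aurka (0.31, SE 0.11) were higher on average. Mki67, a marker of cycling cells, did not pass the test, with log2 differences of 0.13 (SE 0.28) in experienced, 0.64 (SE 0.28) in naive mice and 0.38 (SE 0.20) on average.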

How the data were processed

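The labels give total RNA of sorted marrow HSPCs and column extraction, but name a single-cell droplet kit for the libraries, which was not resolved. Each replicate has 1 table with 1 value per gene, read here as bulk data; the labels list 2 technical replicates of each, and how these were merged is not stated. The submitters' processing notes name Trim Galore 0.6.7, STAR 2.7.10a, RSEM 1.3.1 and GRCm38; strand setting and annotation release are not stated. As deposited, the expected counts are RSEM estimates per gene, and the deposited TPM values are RSEM levels scaled for length and library, per the file headers. Symbols are GENCODE's, matched for 45143 of 45706 identifiers. Chromatin accessibility data were not analysed here.

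Expected counts were rounded. Genes passing edgeR's filter by group (15186 genes, 99.928% of counts) were scaled by TMM and fitted with 1 mean per group over 16 libraries by edgeR 4.0.16 quasi-likelihood (R 4.3.3; common biological coefficient of variation 0.306; 12 residual degrees of freedom). Adjusted p is Benjamini-Hochberg's over all genes tested, called under 0.05, in 7 contrasts. CPM used TMM-scaled library sizes. The median SE of a log2 difference of the 32 genes between groups was 0.162. Alternatives were DESeq2 1.42.0, limma 3.58.1 on log2(TPM + 1), other scalings, no filter, each replicate left out, and the replicate number as a block. The test was checked on simulated counts. All 32 genes are reported. Genes called in any contrast, the MCM ring and the most and least abundant genes of each role are given by replicate, and of each other list the called genes with the lowest adjusted p, up to 6, are named. The genes and lists were chosen with earlier results of these data known.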

Additional observations from a re-analysis of the deposited data

Results flagged for a closer look

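In each group of 4 libraries, a value was listed when its gap to the nearest other value took up more of the group's range than Dixon's 95% limit allows. Of 128 pairs of gene and group, 24 were listed, while chance lists about 1 in 20 groups; genes of 1 library are not independent.

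Experienced LPS replicate 4 was low for 8 genes, with 242 CPM for Mcm5, 70.3 for Mcm10, 289 for Pcna, 101 for Rrm2, 65.0 for Fen1, 38.2 for Rpa2, 85.8 for Pold1 and 42.1 CPM for E2f1. Naive LPS replicate 2 was high for Cdc45 (63.7 CPM), Ccne2 (65.2 CPM), Prim1 (79.8 CPM) and Pola1 (237 CPM), and naive LPS replicate 3 for Ccne1 (33.2 CPM). Experienced PBS replicate 3 was high for Pola1 (148 CPM) and low for E2f1 (49.2 CPM), replicate 4 of that group was high for Chaf1b (97.3 CPM), and replicate 1 was low for Rfc5 (74.8 CPM).

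Naive PBS replicate 4 was low for 6 genes, with 417 CPM for Mcm6, 353 for Mcm7, 85.2 for Cdt1, 284 for Uhrf1, 79.5 for Fen1 and 116 CPM for Pola1. Naive PBS replicate 1 was high for Rfc4 (30.9 CPM).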

How the results depend on the processing

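Counts of the 32 genes called between experienced and naive mice, for the difference of LPS responses, and lower after LPS were 0 in the alternatives run. In experienced mice the count of genes higher after LPS (0) ran from 0 to 5 when each replicate was left out and was 17 without the 4 libraries least like their own group, an alternative chosen after seeing the data, where Ccne2 reversed to 0.431. In naive mice the count (5) was 1 with upper-quartile scaling, 1 with limma on log2(TPM + 1), and 0 to 6 with each replicate left out. Averaged over both, the count (6) was 1 with limma on log2(TPM + 1), 5 to 11 with each replicate left out, and 20 without the 4 libraries. With the replicate number as a block the naive count was 3. The labels do not say what a number marks. Of 24 same-numbered pairs, 4 deviated together (correlation over 0.1; range −0.223 to 0.321), 3 of them among the 4 of experienced LPS with experienced PBS (0.175, 0.222 and 0.321, against −0.123 for replicate 3), and in 5 of the 24 a library correlated best with its own number. In no pair of groups did all 4 exceed 0.1, so the numbers were not used to pair samples. Of 5280 single-gene values under alternatives, 4833 kept their direction and side of the threshold, 57 lost a call and 57 gained one with their direction kept, 1 reversed, and 332, uncalled in both fits, changed sign (51 with limma on log2(TPM + 1), 44 without the 4 libraries). Why counts moved was not tested beyond the libraries and genes left out. The lowest expected count of the 32 genes was 86, for Ccne1, and the effect of depth on its values was not tested.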
